A study of Mus musculus with 12 samples.

Results

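Fzd5, Axin2 and Apc of the Wnt pathway, Smo of the Hedgehog pathway and the receptors Notch2 and Notch3 each carried 1 differential N6-methyladenosine (m6A) site in inguinal white adipose tissue (iWAT) of cold-exposed mice. Every site deposited under these 6 gene names was taken, which gave 6 of 739 sites and 6 of 574 genes. The genes were selected on their presence in the tables of differential sites, so that each passed the authors' thresholds is not a finding. Their folds, directions and false discovery rates (FDR) are given as a description, without a test. m6A was measured by MeRIP-seq, in which mRNA fragments are pulled down with an anti-m6A antibody (m6A IP) and sequenced beside a saved part that is not pulled down (input).

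Young adult male C57BL/6 mice without a transgene spent 7 days either in the cold (4 °C) or under thermoneutral conditions (30 °C), and iWAT, the subcutaneous fat pad of the groin, was collected. Of the 12 libraries, 3 were m6A IP and 3 were input for the cold group, and as many for the thermoneutral group. The files analysed here hold only the finished comparison, so there is no value for a single library, the depth is unknown, and no fold below has an SD. The labels call the comparison C against T, which was read as cold against thermoneutral from the initials of the sample titles. Of 6 beige adipocyte markers, 4 (Ucp1, Cidea, Dio2 and Ppargc1a) had a site, and all 4 were in the table that this reading makes higher in cold. The tissue label cannot be checked further, since the tables hold no expression level.

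The 3 pathways carry signals between neighbouring cells and control cell fate in many tissues. In canonical Wnt signaling a secreted Wnt ligand binds a Frizzled receptor, and β-catenin is then spared from a destruction complex built on Axin and Apc. Notch receptors are cut after binding a ligand on the next cell, and their intracellular domain enters the nucleus and acts with Rbpj. In the Hedgehog pathway Smo transmits the signal once its inhibition by Ptch1 is lifted, and Gli transcription factors are the output. Wnt and Hedgehog signaling are known to restrain white adipocyte differentiation, and Notch signaling is known to restrain the browning of white fat.

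Of these transcripts, 5 had lower m6A signal in cold, and only Notch3 had higher signal. The 1 higher site of 6 stood beside 40.7% of all 739 sites, and since the genes were chosen with these values known, nothing is read from that difference. By pathway, all 3 Wnt genes and the Hedgehog gene were lower, while the pair of Notch receptors was split. Leaving out Fzd5, whose value is treated separately below, the folds ran from 4.01 to 22.5. A fold here is a linear ratio from the authors' deposited tables, above 1 in both directions. Transcript abundance and methylation cannot be told apart in it, because it is not given in the sources used here whether inputs entered the comparison.

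**Figure D1:**
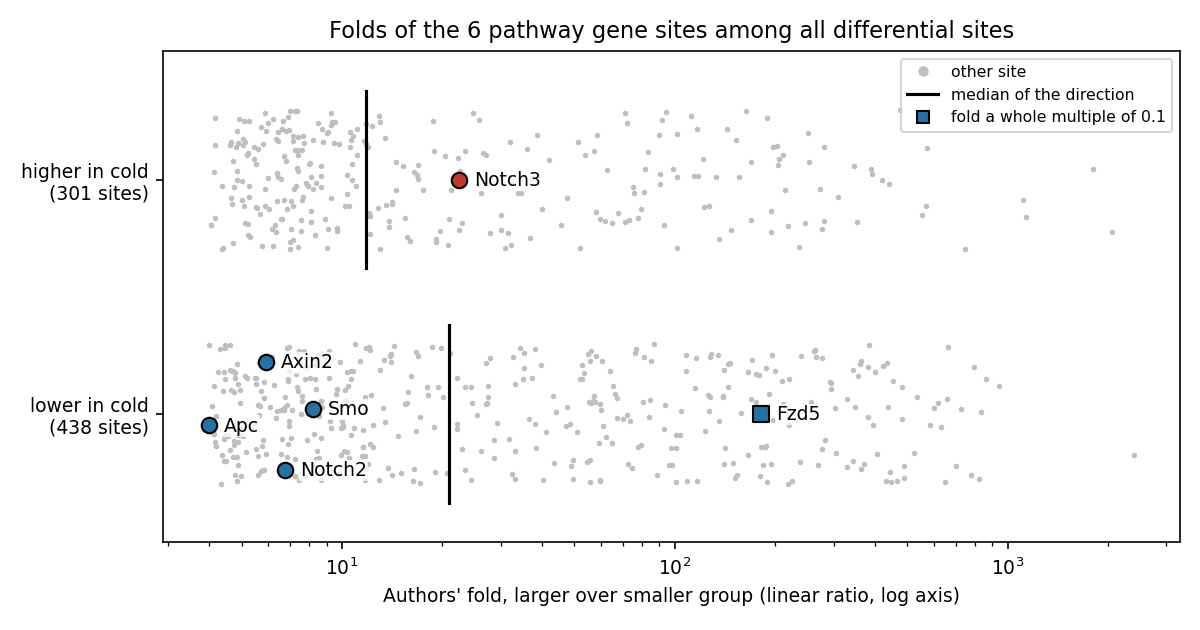
Each point is 1 differential site, placed by the authors' fold (linear ratio, log axis) and by its direction, with a black line at the median of the direction and the vertical scatter added only for display. Notch3 at 22.5 lies above the median of 11.8 for higher sites, Axin2, Apc, Smo and Notch2 lie below the median of 20.9 for lower sites, and the square marks Fzd5, whose fold is a whole multiple of 0.1.

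Fzd5 encodes a Frizzled receptor for Wnt ligands (Entrez gene 14367). Its site lay at chr1:64736322-64736660 of mm10 on the minus strand, 339 bp in exon 2 of 2. In the authors' deposited tables it was 181.7-fold lower in cold (p = 2.79e-09, FDR 1.45e-07). This fold is a whole multiple of 0.1 within a tolerance of 1e-06, as were 109 of 739 folds, 73 of them at lower sites. The values behind each fold are not given. Why such folds occur was therefore not tested, and their sizes cannot be checked here. Exon 2 is 6296 bases long and holds the whole coding sequence (CDS) of 1758 bases. The site began 60 bases before the start codon and covered the first 279 bases of the CDS. The annotated gene Gm38058 on the opposite strand covers all 339 bases of the site with an exon. The sources used here do not state that reads were counted by strand, so reads from Fzd5 and Gm38058 cannot be told apart.

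The 2 GGAC sequences of the Fzd5 site are shown because GGAC is the core in which m6A is most often found, and both lie in the coding part. The stretch of 74 bases is at chr1:64736353-64736426, read on the transcribed strand, with GGAC in capitals.

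Fzd5 coding stretch: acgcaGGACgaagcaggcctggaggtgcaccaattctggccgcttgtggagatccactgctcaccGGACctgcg

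Axin2 encodes a scaffold of the β-catenin destruction complex and is itself a widely used target gene of Wnt signaling (Entrez gene 12006). Its site, at chr11:108923152-108924102 on the plus strand, was 5.92-fold lower in the authors' deposited tables (p = 5.27e-07, FDR 4.68e-06). With 951 bp it was the longest of the 6 sites and covered 100% of exon 2 of 11, with 136 bases of 5′ UTR and 815 bases of CDS. It thus ended at exon borders on both sides. Axin2 has 2 other exons of at least 300 bases, the length of the shortest site in the tables, and neither carried a site, although exon 11 with 1515 bases is longer than exon 2. The site held 6 GGAC sequences, all in its coding part, and 4 of them read GGACT, the form that methylation prefers.

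The 157 bases at chr11:108923463-108923619 hold 4 of the 6 and are shown for this clustering, with GGAC in capitals on the transcribed strand.

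Axin2 coding stretch: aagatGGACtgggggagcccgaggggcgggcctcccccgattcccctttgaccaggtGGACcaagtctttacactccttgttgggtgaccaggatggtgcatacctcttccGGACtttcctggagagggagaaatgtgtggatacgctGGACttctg

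Apc encodes the large protein that holds β-catenin for degradation together with Axin (Entrez gene 11789). Its site on chromosome 18, from 34312562 to 34313120 on the plus strand, was 4.01-fold lower in the authors' deposited tables (p = 3.74e-06, FDR 2.95e-05). This was the smallest fold of all 739 sites, the next being 4.05, and the p ranked 717 of 739, so Apc stood at the very edge of the tables. A slightly stricter limit would have left it out. The site covered 559 bp inside exon 16 of 16, an exon of 10548 bases that holds 6577 of the 8529 coding bases. All 559 bases were coding, and the site ended 5461 bases before the end of the CDS. Sequence of chromosome 18 was not analysed here, so motifs of the Apc site are not given.

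The 3 Wnt sites lay toward the 5′ ends of their transcripts. Their midpoints fell at 14.2% (Fzd5), 16.2% (Axin2) and 24.2% (Apc) of the length of the spliced transcript. Over the 640 sites placed in coding transcripts the median was 62.3%, and 87 sites (13.6%) lay below 25%. The sites of Smo, Notch2 and Notch3 lay at 73.4%, 77.0% and 78.7%, so these 3 Wnt genes and the other 3 genes did not overlap in this measure. Other genes of the Wnt pathway, given below, had sites farther toward the 3′ end. A start codon was covered by 27 of the 640 placed sites (4.22%), 12 of them lower in cold, and Fzd5 and Axin2 were among these. Position was not used to choose the genes, but with 3 genes on each side the difference is given as a description only.

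**Figure D2:**
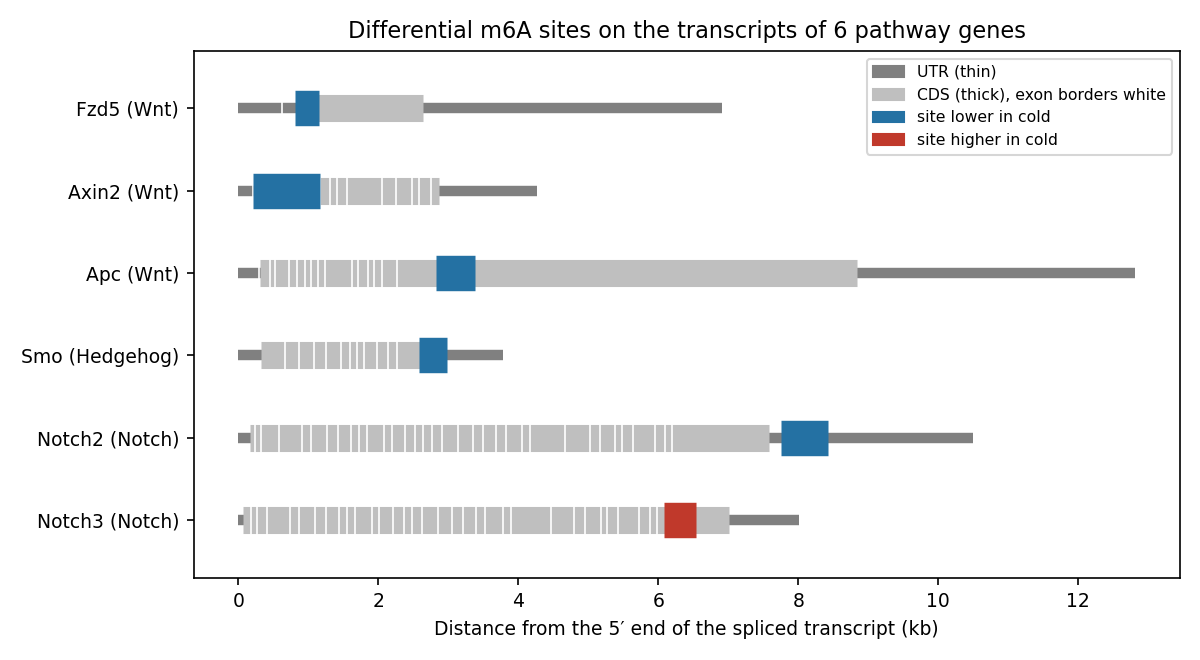
Spliced transcripts are drawn to scale from the 5′ end (kb), with thin UTRs, a thick CDS, white exon borders, and the differential site in blue (lower in cold) or red (higher in cold). Sites of Fzd5 and Axin2 cover the start codon, the Apc site lies early in the last coding exon, the Smo site crosses the stop codon, and the Notch2 and Notch3 sites lie on opposite sides of it.

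Smo encodes the membrane protein Smoothened, which relays Hedgehog signals (Entrez gene 319757). Its site, at chr6:29760162-29760560 on the plus strand, was 8.18-fold lower in the authors' deposited tables (p = 7.36e-08, FDR 7.79e-07). It lay in the last exon, 12 of 12, and crossed the stop codon, with 124 bases of CDS followed by 275 bases of 3′ UTR. A stop codon was covered by 183 of the 640 placed sites (28.6%), and Smo was the only one of the 6 genes among them. Of the 3 GGAC sequences in the 399 bp, the first ended 3 bases before the stop codon and was the only GGACT. The other 2 lay in the 3′ UTR.

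These places are shown in windows of 30 bases, at chr6:29760263-29760292 with the stop codon 3 bases after GGAC, and at chr6:29760481-29760510, with GGAC in capitals.

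Smo window at the stop codon: tggatgcagactcGGACttctgagcctgca
Smo window in the 3′ UTR: aatcaGGACcctgcacttcaGGACccttgc

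Notch2 and Notch3 encode single-pass receptors of the same family. Notch3 is best known from pericytes and vascular smooth muscle (mural cells), while Notch2 is present in many cell types. The Notch2 site, at chr3:98147622-98148280 on the plus strand (Entrez gene 18129), was 6.77-fold lower in the authors' deposited tables (p = 2.02e-08, FDR 2.78e-07). The Notch3 site, at chr17:32122302-32122760 on the minus strand (Entrez gene 18131), was 22.5-fold higher in the authors' deposited tables (p = 3.06e-08, FDR 3.76e-07). On the log2 scale these folds are 2.76 for Notch2 and 4.49 for Notch3, in opposite directions. By size they ranked 352 of 438 lower and 112 of 301 higher sites, with folds that are whole multiples of 0.1 included. No error of either fold can be computed here, so the difference between the receptors has no test. The other receptors, Notch1 and Notch4, had no site, meaning only that none past the authors' thresholds was listed.

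Both Notch sites lay in the last exon, but in different parts of it. The Notch2 site of 659 bp was in exon 34 of 34, all in the 3′ UTR, and began 178 bases after the last base of the stop codon. The Notch3 site of 459 bp was in exon 33 of 33, all in the CDS, and ended 482 bases before the last base of the stop codon. That part of Notch3 encodes the C-terminal portion of the intracellular domain, the piece released on activation. The coding part of the last exon was 1041 bases in Notch3 and 1392 bases in Notch2, and the Notch2 part carried no site. In turn the 3′ UTR of Notch3, with 1000 bases, carried none, against 2917 bases of 3′ UTR in Notch2. Each transcript had 5 exons of at least 300 bases, numbers 4, 25, 26, 31 and 34 in Notch2 and 4, 24, 25, 30 and 33 in Notch3. The first 4 of these were between 302 and 566 bases long in both genes and had no site. Such exons made up 55.3% of the Notch2 and 44.7% of the Notch3 transcript. The remaining exons were shorter than the shortest site.

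**Figure D3:**
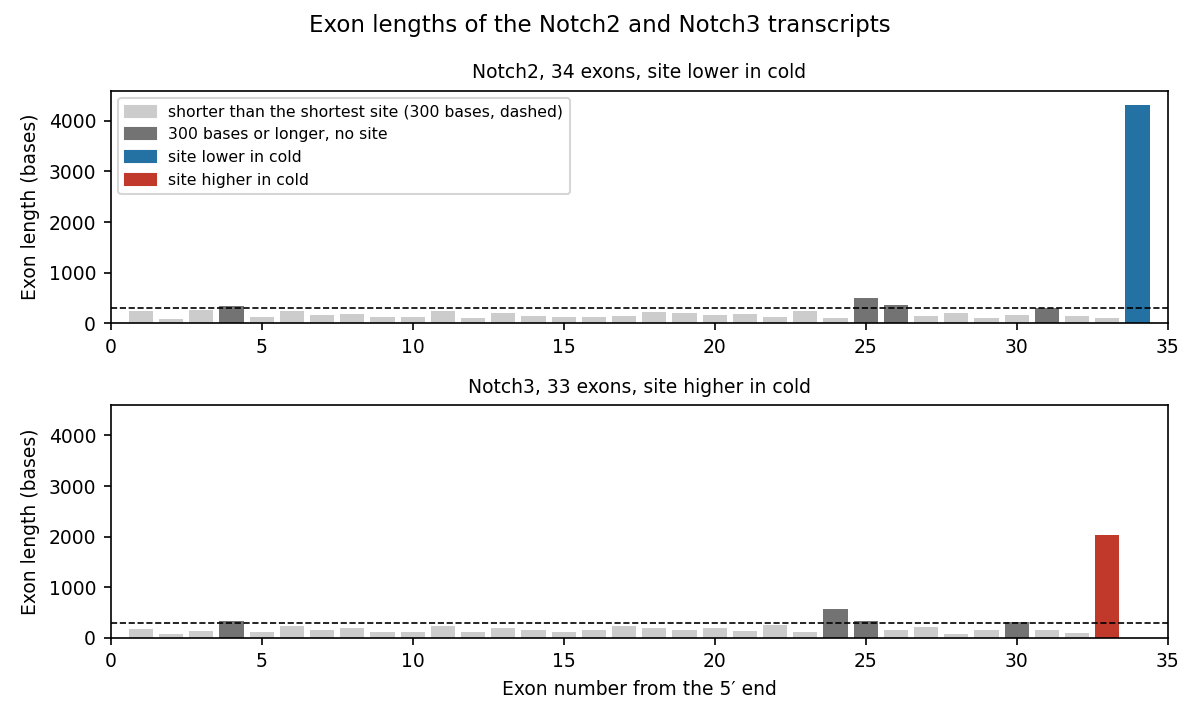
Bars give the length in bases of each exon of Notch2 (34 exons) and Notch3 (33 exons), numbered from the 5′ end, with a dashed line at 300 bases, the shortest site in the tables. In both receptors only the last exon, 4309 bases in Notch2 and 2041 bases in Notch3, carried a site. The site was lower in cold in Notch2 (blue) and higher in Notch3 (red). Of all 640 placed sites, 76.1% lay in the last exon.

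The 2 sites also differed in sequence. The Notch3 site held 8 GGAC in 459 bases, or 17.4 per 1000 bases, and the Notch2 site held 3 in 659 bases, or 4.55 per 1000 bases. Among 278 sites of a length within 20% of the Notch3 site, the median was 2 and 8 was the highest count. By density Notch3 ranked 5 of 573 sites inside a single exon, and Notch2 ranked 251. GC content was 66.2% in the Notch3 site (rank 9 of 573) and 51.1% in the Notch2 site, and its part in the count was not tested. For the wider consensus DRACH (named by its letters for alternative bases) there were 11 matches in Notch3 and 12 in Notch2, or 24.0 and 18.2 per 1000 bases (ranks 206 and 399 of 573). Each site held 2 GGACT.

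The 8 GGAC of Notch3 lay within 300 bases, shown whole as chr17:32122452-32122751 on the transcribed (minus) strand, while those of Notch2 were spread out and are shown in windows of 30 bases at chr3:98147631-98147660, chr3:98147814-98147843 and chr3:98148136-98148165. Capitals mark GGAC.

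Notch3 coding stretch: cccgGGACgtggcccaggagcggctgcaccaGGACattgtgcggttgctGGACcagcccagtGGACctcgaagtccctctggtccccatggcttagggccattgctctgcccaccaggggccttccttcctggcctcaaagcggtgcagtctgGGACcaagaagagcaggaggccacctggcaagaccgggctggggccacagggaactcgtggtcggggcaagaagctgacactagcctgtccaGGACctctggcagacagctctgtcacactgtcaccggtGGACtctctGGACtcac
Notch2 first window: cagttttaggggaGGACgcagctcctactg
Notch2 second window: actgagtgccccgGGACtctgtccaggctg
Notch2 last window: gcaaaatatttggGGACtagaagcctcctt

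Over the 5 sites whose sequence was read, each held at least 2 GGAC and 22 in all, with a median of 6.31 per 1000 bases. Over the 573 sites inside a single exon, 84.6% held a GGAC, and the median was 3.58 per 1000 bases over all of them, 5.01 for sites in the CDS and 3.03 for sites in the 3′ UTR. Fzd5 (5.90), Axin2 (6.31) and Smo (7.52 per 1000 bases) ranked 151, 133 and 102 of 573. DRACH was in 100% of the 573 sites, so its presence separates nothing. Axin2, the longest site, had 27 DRACH matches, the most of the 5, against a median of 20 in 35 sites of like length. By DRACH density it ranked 104 of 573. Fzd5 had 3, against a median of 8 in 292 sites of like length. GGACT, found in 44.2% of the 573 sites, was absent from the Fzd5 site only. The antibody does not show which of these adenosines was methylated.

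**Figure D4:**
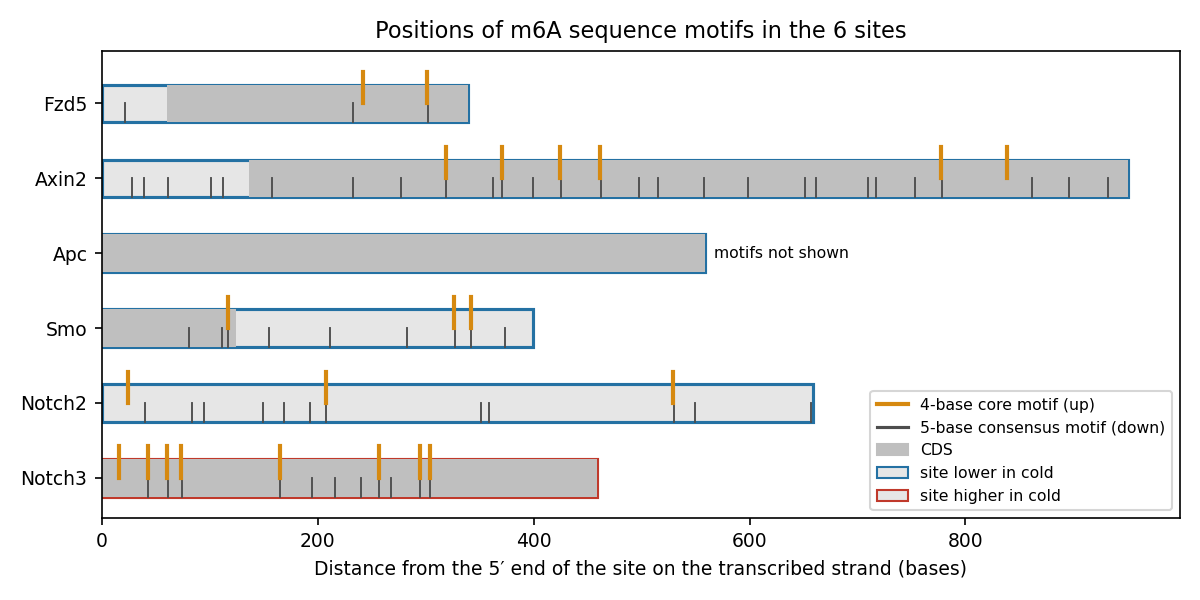
Each bar is 1 site drawn from its 5′ end on the transcribed strand (bases), dark grey where coding, with orange ticks for the 4-base core GGAC and black ticks for the 5-base consensus DRACH. The 8 orange ticks of Notch3 start between bases 14 and 302 of its 459, the 3 of Notch2 are spread over 659, and motifs of Apc are not shown.

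Further transcripts of the pathways were taken from gene lists by role, with 99 symbols for Wnt, 59 for Notch and 36 for Hedgehog. In all, 9 Wnt genes had a site, 8 lower only and 1 higher only. For Notch it was 7 genes, 4 lower only, 2 higher only and 1 in both directions, and for Hedgehog 3 genes, all lower only. Without the 6 genes, 6 of 96 Wnt genes had a site, 5 lower only and 1 higher only. For Notch 5 of 57 then had a site, 3 lower only, 1 higher only and 1 in both directions. For Hedgehog it was 2 of 35, both lower only. As background, 37.1% of all 558 genes whose sites shared 1 direction were higher only. The lists were compiled with earlier results of these data known, so these counts were not tested and are no independent evidence of a direction. In the whole series 574 genes had a site, and the number of genes tested is unknown. The share of all genes with a site can therefore not be given, and nothing is read from a role without a site.

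No Wnt ligand (0 of 19) had a site. At the receptors, Ror1, a receptor tyrosine kinase that binds Wnt ligands, had a site in the 5′ UTR that was 84.7-fold lower, a whole multiple of 0.1 like that of Fzd5. The secreted Wnt antagonist Sfrp2 was 5.11-fold lower, and Kremen1, a coreceptor of the Dickkopf inhibitors, 8.68-fold lower in the authors' deposited tables. Among nuclear factors, Pygo2, a coactivator of β-catenin, was 104.8-fold and Tle1, a Groucho corepressor, 7.59-fold lower. Its single higher gene was Myc, a transcription factor listed as a target gene, 40.0-fold higher in cold. The other Wnt sites were not all near the 5′ end. Kremen1 and Pygo2 had theirs in the 3′ UTR, at 55.1% and 68.8% of the transcript, and those of Sfrp2 and Tle1 touched the stop codon.

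In the Notch list no ligand (0 of 8) and no protease (0 of 10) had a site. Dtx2, a Deltex ubiquitin ligase, was 5.61-fold lower, the Mastermind coactivator Maml2 329.4-fold lower and the acetyltransferase Ep300 5.51-fold lower in the authors' deposited tables. The Maml2 fold is a whole multiple of 0.1. Spen, a corepressor partner of Rbpj, had a coding site 50.8-fold lower and another site 236.4-fold higher, both whole multiples of 0.1. The higher Spen site had its midpoint in an intron and overlapped exon 8 of 16. Hes1, a classical target gene of Notch, was 4.37-fold higher, with a site across its stop codon. Its fold ranked 723 of 739, near the smallest fold of 4.01. Higher only in the list were thus Notch3, 1 of 4 receptors, and Hes1, 1 of 7 target genes. The other 6 target genes had no site, and Spen had a site in each direction. Notch2, Dtx2, Maml2 and Ep300 were lower only.

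In the Hedgehog list Disp1, which releases the ligand from the cell, was 423.0-fold lower (a whole multiple of 0.1). Gpc3, a glypican that binds Hedgehog ligands, was 33.2-fold lower in the authors' deposited tables. The Gpc3 site had its midpoint in an intron and overlapped exon 5 of 8. None of the 3 ligands and none of the 3 Gli factors had a site.

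**Figure D5:**
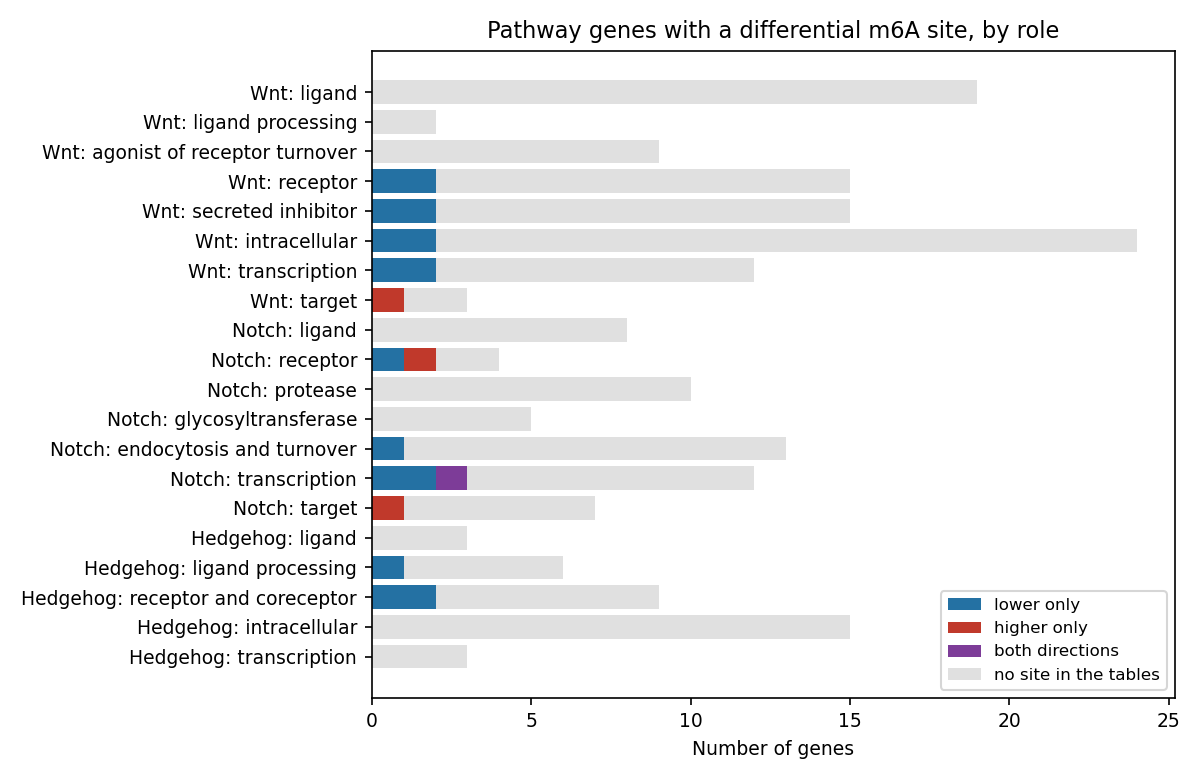
Bars give the number of genes of each role in the Wnt, Notch and Hedgehog lists, split into lower only (blue), higher only (red), both directions (purple) and no site in the tables (grey). Ligands of all 3 pathways had no site. Red appears only for 1 of 4 Notch receptors, 1 of 3 Wnt target genes and 1 of 7 Notch target genes. Nothing is read from a role without a site, as the share of all genes with a site is unknown.

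Markers of cell types that iWAT can hold moved as well. Of 17 mural and smooth muscle markers only Notch3, itself 1 of the 6 chosen genes, and Des had a site. Both were higher in cold, Des 9.05-fold in the authors' deposited tables. Without Notch3, Des was the only mural and smooth muscle marker with a site. Acta2, Myh11, Tagln, Rgs5 and Pdgfrb had none. Des encodes the intermediate filament desmin, which skeletal muscle also contains, and all 8 skeletal muscle markers with a site (of 19) were higher. Lower in cold were all 6 preadipocyte and fibroblast markers with a site (of 13) and all 3 macrophage markers with a site (of 10), the same direction as Fzd5, Axin2, Apc, Smo and Notch2. Of 7 adipocyte markers only Lep had a site, also lower, and endothelial markers had 0 of 13. Among all 558 genes with 1 direction, 351 were lower only and 207 higher only. In bulk tissue fewer cells of a type, less RNA per cell and less methylation cannot be told apart here. The part of these cells in the sites of the 6 genes was not tested. Gm17276, annotated opposite to Notch3, spans the Notch3 site with an intron.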

How the data were processed

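MeRIP-seq of mouse iWAT was analysed from 2 deposited tables of differential sites, higher and lower in the comparison C against T. According to the methods, cutadapt trimmed the reads, Hisat2 mapped them to mm10, MACS2 called peaks and diffReps gave the differential sites. Bowtie 0.12.2, HOMER and the builds mm8 and mm10 stand in the submitters' processing notes. The authors deposited a fold (a linear ratio above 1 in both tables), a p-value, an FDR and a score that equals −log10 p, all from their own comparison of the groups. These are printed as the authors' values and were not tested. The smallest fold was 4.01, the largest p 9.65e-06 and the shortest site 300 bp. Sites below these limits are not in the tables.

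Groups came from sample titles. Starts were read as counted from 0 and are given counted from 1, since 135 of 153 starts off the 20 bp grid then met an exon start, against 1 otherwise. On-grid starts could thus be wrong by 1 bp. Sites were placed by their midpoint on the coding transcript with the longest CDS of GENCODE M21 (Python 3.11.15, pandas 2.3.3, pysam 0.24.0), which placed 640 sites. Motifs were counted on the transcribed strand only, in the RefSeq assembly GRCm38.p6, as GGAC, GGACT and DRACH (H stands for A, C or T, D for any base but C, and R for a purine), and overlaps were allowed, so 1 GGAC can also count as DRACH. Of 278 distinct list symbols, 277 matched RefSeq symbols and 1 a synonym. Functions were tested on simulated data.

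The genes and lists were chosen with earlier results of these data known. All 6 genes and every listed gene of the 3 pathways with a site are named. Cell type markers are given as counts, and only some of them are named.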

Additional observations from a re-analysis of the deposited data

How the results depend on the processing

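The stricter limits left fewer of the 6 sites. Notch3, which passes each limit by its own fold and p, was the 1 higher site among all 6, among the 5 without folds that are whole multiples of 0.1, among the 3 with a fold of at least 8 and among the 4 with a p of at most 1e-07. The 2 sites in the 3′ UTR were the same number on the longest spliced transcript, on the RefSeq transcript (added after seeing the data) and by most bases. Over all placed sites the share in the 3′ UTR was 62.5% in the main count. The share of all sites that were higher was 36.2% at a p of at most 1e-07, against 40.7% in the main count. Genes of the Wnt list with a site fell from 9 to 5 at a fold of at least 8 and to 5 at a p of at most 1e-07, and those of the Notch list from 7 to 3 at that same fold. By the pathway annotation in the tables, added after seeing the data, Hedgehog had 1 gene. Counted as DRACH, the median of 6.31 motifs per 1000 bases became 22.6, as this motif covers more sequences. No paired analysis was possible because the tables hold no value of a single library, and for the same reason no replicate could be left out. The number of sites tested and the depth are unknown.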

Other observations

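The deposited tables carry a pathway annotation of their own, which names 11 genes for Wnt, 6 for Notch and 1 for Hedgehog. It adds 5 genes outside the lists above, named here after their values were seen. In the Wnt annotation the glypican Gpc4 (4.71-fold) and the transcription factor subunit Jun (4.66-fold) were higher in cold, and the kinase Camk2d (9.95-fold), the planar polarity protein Prickle1 (10.2-fold) and the secreted protein Serpinf1 (4.43-fold) were lower in the authors' deposited tables. By this annotation 3 Wnt genes were higher and 8 lower, and 2 Notch genes were higher and 4 lower. Over the 245 genes with any pathway named, 100 were higher only and 138 lower only. The Jun site covered the start codon of its only exon, as the Fzd5 site did in exon 2 of that gene, but in the opposite direction.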
